A study of Mus musculus with 19 samples.

Results

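Messenger RNA of 10 genes of innate immune sensing was measured in the cerebral cortex of male mice of the P301S/E4 genotype. The genotype is a model of tauopathy: P301S is a mutation of tau, and E4 stands for a form of apolipoprotein E. The genes are the interleukin-1 family cytokines Il1a, Il1b, Il18 and Il33, the cytokine gene Tnf, the Toll-like receptor genes Tlr2, Tlr4 and Tlr7, the inflammasome sensor gene Nlrp3 and the protease gene Casp1. They were chosen by name, as a set of receptors, inflammasome parts and cytokines, and all 10 were found among the 55487 gene rows of every library. Of the 19 libraries, 10 came from lemborexant-treated mice and 9 from vehicle-treated mice. Lemborexant, an antagonist of both orexin receptors, was dosed at 30 mg/kg, and vehicle mice received 0.5% methylcellulose; gavage was daily at ZT13 (zeitgeber time, hours after lights on), from 7.5 to 9.5 months. The labels record every mouse as 41 weeks old, male and of the P301S/E4 genotype, and give no group of another genotype. The sources used here do not name the promoters of the transgenes. The labels do not say that each library is a separate mouse, so the p-values measure only the spread between these libraries.

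Toll-like receptors recognise parts of microbes and material released by damaged cells. Tlr2 and Tlr4 sense lipoproteins and lipopolysaccharide at the cell surface, and Tlr7 senses single-stranded RNA inside endosomes. They signal through adaptor proteins and kinases to nuclear factor kappa-B, which turns on cytokine genes such as Il1b and Tnf and also the sensor gene Nlrp3. Activated NLRP3 protein assembles an inflammasome, in which caspase-1 is activated and cuts the precursors of interleukin-1 beta and interleukin-18 into their secreted forms. Messenger RNA levels do not report these protein steps. In brain, microglia are the main cells that use this pathway, whereas interleukin-33 is made chiefly by oligodendrocytes and astrocytes and is released from damaged cells as an alarm signal.

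The libraries held 20185098 to 31795633 reads on genes. In 3 pairs of lemborexant libraries (1 and 10, 3 and 8, 4 and 9) the counts were nearly alike: the chi-square per degree of freedom was 3.08 to 3.66, against 12.2 to 274 in the other 168 pairs of libraries. Whether each pair is 1 mouse was not given, and the value with the pairs summed is given where it changes a call. A second split was by Cst7, which encodes cystatin F, an inhibitor of proteases that microglia express around protein deposits. Its level was 16.4 to 144 CPM (counts scaled to library size and by edgeR's TMM factors) in 15 libraries, 8 lemborexant and 7 vehicle, against 0.115 and 0.253 CPM in lemborexant 1 and 10 and 0 and 0.188 CPM in vehicle 1 and 4. These 4 are called the libraries without Cst7, and lemborexant 1 and 10 are 1 of the nearly alike pairs. The split rests on a measured level and not on the labels, so values on its 2 sides are described and not tested. Whether the 4 libraries without Cst7 carry the labelled genotype was not tested, and that limits every value across the split. Neuronal, astrocyte, oligodendrocyte and microglial marker genes were present in every library.

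Sequence upstream of 5 genes is shown to print the TATA box of the cytokine genes and the kappa-B motif of Tlr2. Il18 and Casp1, which had no searched motif in the 100 bases shown, are given for contrast. The sequences and start sites are RefSeq's on GRCm38.p6, written 5′ to 3′ on the strand of the gene. The table held 8 of the 10 genes with 10 start sites. Capitals mark 4 motifs. The first is TATAAA, the letters of a TATA box. The second is GAGGAA, the core bound by PU.1, a regulator of microglia and macrophages. The third, AP-1, was searched as TGANTCA, where N is any base. The fourth is the kappa-B motif bound by nuclear factor kappa-B, searched as 3 bases of G, 2 of any kind, 2 of T, 1 of any kind and 2 of C.
Il1a, chr2:129309973-129310072, minus strand: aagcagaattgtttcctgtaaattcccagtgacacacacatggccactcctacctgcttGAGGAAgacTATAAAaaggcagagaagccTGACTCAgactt
Il1b, chr2:129371140-129371239, minus strand: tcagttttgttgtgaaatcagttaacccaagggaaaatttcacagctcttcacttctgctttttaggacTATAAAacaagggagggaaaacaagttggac
Tnf, chr17:35202008-35202107, minus strand: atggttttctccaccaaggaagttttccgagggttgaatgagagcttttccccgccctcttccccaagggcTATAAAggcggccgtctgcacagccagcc
Il33, inner start, chr19:29945690-29945789, plus strand: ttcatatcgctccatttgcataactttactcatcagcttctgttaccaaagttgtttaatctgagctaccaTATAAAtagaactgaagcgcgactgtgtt
Tlr2, chr3:83841768-83841858, minus strand: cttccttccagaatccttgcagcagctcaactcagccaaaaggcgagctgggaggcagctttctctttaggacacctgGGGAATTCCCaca
Il18, chr9:50554600-50554699, plus strand: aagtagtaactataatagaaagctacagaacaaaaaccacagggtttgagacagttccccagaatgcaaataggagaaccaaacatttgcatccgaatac
Casp1, chr9:5298417-5298516, plus strand: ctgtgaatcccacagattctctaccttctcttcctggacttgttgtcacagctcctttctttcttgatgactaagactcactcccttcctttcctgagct
Each window is the 100 bases before the start, except that of Tlr2, which is the 91 bases that lie 160 to 250 bases before it. In Il1a, Il1b, Tnf and the inner start of Il33 the first base of TATAAA lay 32, 31, 29 and 29 bases before the start. A TATAAA on the gene's strand with its first base 26 to 35 bases before the start was found in 4 of the 10 start sites and in 1.71% of all 32851 RefSeq promoters. The kappa-B motif of Tlr2 lay 172 bases before the RefSeq start. Over 250 bases and both strands, kappa-B was present in 4.11% of promoters, AP-1 in 6.75%, TATAAA in 12.4% and the PU.1 core in 23.3%. Of the 10 start sites, 2 had kappa-B, 1 had AP-1, 6 had TATAAA and 4 had the PU.1 core. These counts include matches outside the sequences shown. Il18 had TATAAA on the opposite strand 175 bases before its start, and Casp1 had the PU.1 core on the opposite strand 108 bases before its start. The motifs did not overlap each other in the sequences shown, and a match describes letters only, not a site in use. For Tlr4, Tlr7 and Nlrp3, no sequence is shown. Nlrp3 also had a kappa-B match, on the opposite strand 186 bases before a start.

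Per length, Il33 and Il18 were the most abundant of the 10 messages. The median over all 19 libraries was 115 TPM (a unit scaled by library total and transcript length) for Il33 and 66.4 TPM for Il18. Casp1 and Tlr2 followed at 5.53 and 5.01 TPM, then Tlr7 at 2.90, Il1a at 2.29, Tlr4 at 1.63 and Il1b at 1.26 TPM. Nlrp3 and Tnf were lowest, at 0.341 and 0.130 TPM. The ranges over libraries overlapped between each pair of neighbours in this order except Il18, at 54.2 to 87.6 TPM, and Casp1, at 2.09 to 8.13 TPM.

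The first comparison asks whether these genes differ after chronic orexin receptor blockade. None of the 10 passed the test. In edgeR's quasi-likelihood fit across all genes, 498 genes of 19105 (2.61%) had an adjusted p under 0.05, 182 higher after lemborexant (0.953%) and 316 lower (1.65%). Of the 10 genes, 9 passed the expression filter, 0 were called, and 0 had an unadjusted p under 0.05, while 4911 of the 19105 genes had one. DESeq2 and limma's voom also called 0. With the nearly alike pairs summed, 0 genes of the whole table passed, with 4101 at an unadjusted p under 0.05, so the count of 498 depends on treating the pairs as separate libraries. Tnf failed the filter, with 0 to 9 reads per library.

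**Figure D1:**
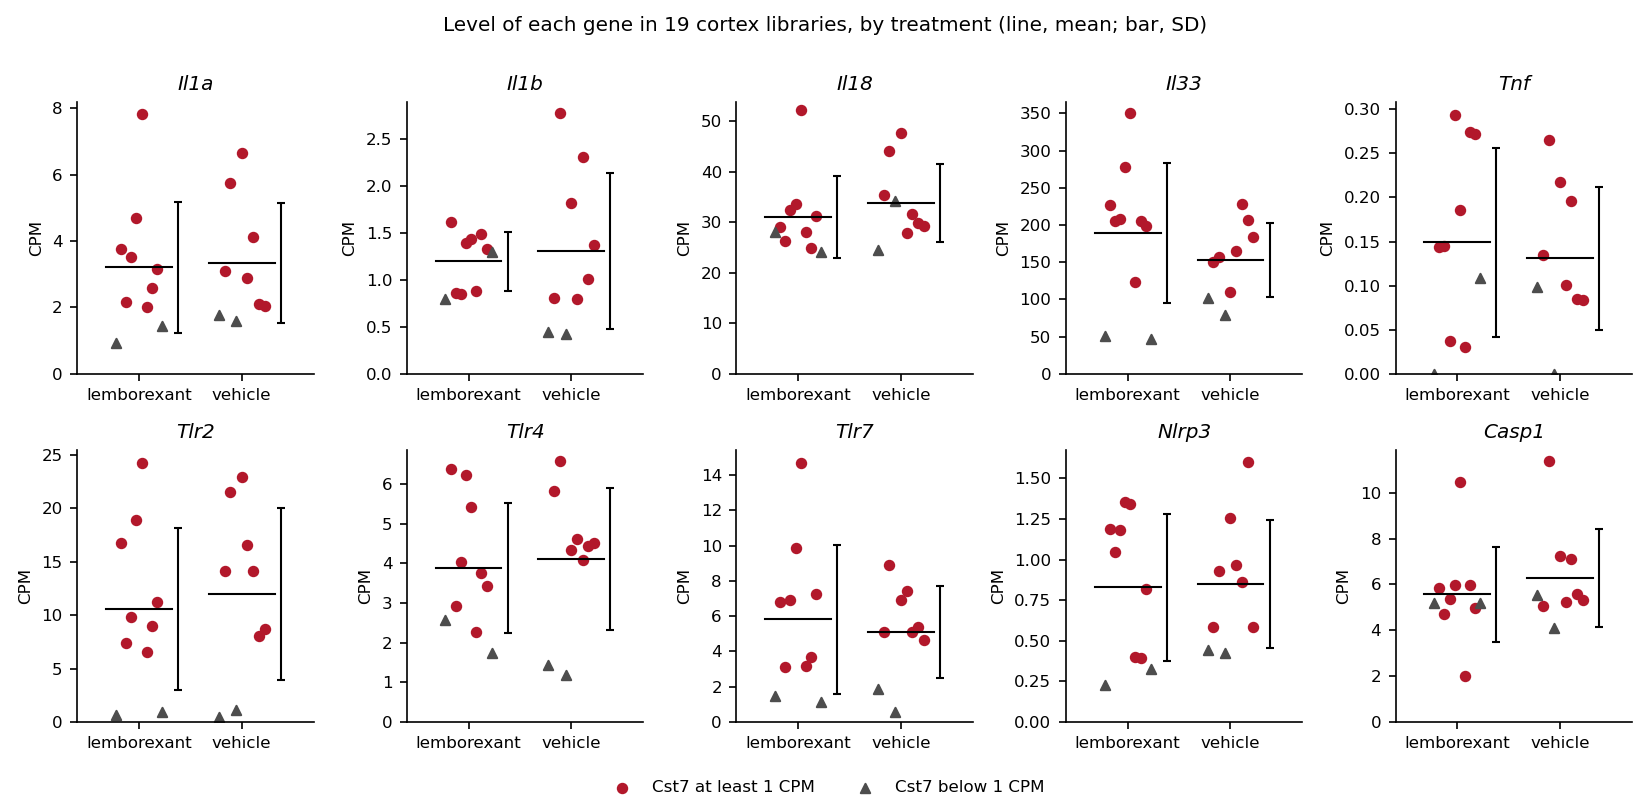
Level of each of the 10 genes in CPM, on a linear axis for each gene, in lemborexant libraries (left, n = 10) and vehicle libraries (right, n = 9), with a line at the mean and a bar of 1 SD. Red circles are libraries with at least 1 CPM of Cst7, grey triangles the 4 libraries without it. In every panel the lemborexant and vehicle values overlap, and for Tlr2 the grey triangles lie at 0.441 to 1.08 CPM, below all red circles.

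Among the cytokine genes, Il33 had the largest positive difference. Il33 ranged over 46.5 to 350 CPM with a median of 205 in lemborexant libraries, against 78.4 to 228 CPM with a median of 156 in vehicle libraries. The means were 189 ± 94.2 CPM after lemborexant and 153 ± 49.8 CPM after vehicle (SD, n = 10 and 9), and the log2 difference was 0.30 ± 0.31 (SE; edgeR adjusted p = 0.546). Both ends of the Il33 range came from lemborexant libraries, the lowest from the nearly alike libraries 10 and 1 at 46.5 and 51.1 CPM, the highest from libraries 6 and 5 at 350 and 278 CPM.

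Without the 4 libraries that lack Cst7, the Il33 difference was log2 0.38 ± 0.18 (edgeR, unadjusted p = 0.0496, adjusted p = 0.211). With the nearly alike pairs summed as well, it was 0.42 ± 0.20 (edgeR, unadjusted p = 0.0543, adjusted p = 0.253). In the fit with pairs kept apart 23.6% of the 19230 genes tested had an unadjusted p under 0.05 and 2.71% passed the adjusted threshold, against 0 genes with the pairs summed, where 3931 had an unadjusted p under 0.05. Among these libraries, Il33 lay at 123 to 350 CPM with a median of 207 in 8 lemborexant libraries, against 110 to 228 CPM with a median of 165 in 7 vehicle libraries. The oligodendrocyte marker sum of the same libraries had a median of 10701 CPM in a range of 5752 to 14525 after lemborexant, against 8157 CPM in a range of 5359 to 10873 after vehicle. Its part in the Il33 values was not tested. The labels number the libraries in 2 ranges. Among libraries 1064 to 1602 (7 lemborexant and 7 vehicle) the Il33 log2 difference was 0.54, and among libraries 859 to 933 (3 lemborexant and 2 vehicle) it was -0.37, with edgeR adjusted p = 0.296 and 1.

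The other interleukin-1 family genes had mean levels close to each other in both treatments. Il1a, a cytokine that is active without cutting by caspase-1, averaged 3.21 ± 1.98 CPM after lemborexant and 3.33 ± 1.81 CPM after vehicle, with a log2 difference of -0.06 ± 0.35 (edgeR adjusted p = 0.933). Il1b, whose product must be cut to be active, averaged 1.20 ± 0.312 CPM after lemborexant and 1.31 ± 0.834 CPM after vehicle, a log2 difference of -0.13 ± 0.31 (edgeR adjusted p = 0.820). Lemborexant libraries held Il1b at 0.803 to 1.62 CPM, inside the vehicle range of 0.423 to 2.78 CPM. Il18, another precursor that caspase-1 cuts, averaged 31.0 ± 8.11 CPM after lemborexant and 33.8 ± 7.64 CPM after vehicle, a log2 difference of -0.13 ± 0.14 (edgeR adjusted p = 0.596). It was the most even of the 10 genes from library to library, and its interval was the narrowest. Tnf, the gene of tumour necrosis factor, was listed at 0 to 0.293 CPM after lemborexant and 0 to 0.265 CPM after vehicle, and at this depth a difference was not detectable (log2 0.17 ± 0.55 in a fit without the filter, edgeR adjusted p = 0.884).

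For each receptor gene the SD within a treatment was larger than the difference of the means. Tlr2 lay at 0.650 to 24.3 CPM with a median of 9.43 in lemborexant libraries, against 0.441 to 23.0 CPM with a median of 14.1 in vehicle libraries. Its log2 difference was -0.18 ± 0.60 (edgeR adjusted p = 0.872), the widest error of the 9 genes tested. Tlr4 lay at 1.74 to 6.38 CPM after lemborexant and 1.18 to 6.57 CPM after vehicle, with means of 3.87 ± 1.64 CPM after lemborexant and 4.11 ± 1.78 CPM after vehicle and a log2 difference of -0.09 ± 0.30 (edgeR adjusted p = 0.879). Tlr7 lay at 1.16 to 14.7 CPM after lemborexant and 0.564 to 8.91 CPM after vehicle, with means of 5.81 ± 4.20 CPM after lemborexant and 5.12 ± 2.62 CPM after vehicle and a log2 difference of 0.18 ± 0.44 (edgeR adjusted p = 0.827). Lemborexant 6, which had the most Tlr7 and Tlr2, also had the most Cst7 of its treatment.

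The inflammasome genes did not pass the test either. Nlrp3 averaged 0.829 ± 0.452 CPM after lemborexant and 0.850 ± 0.395 CPM after vehicle, a log2 difference of -0.05 ± 0.35 (edgeR adjusted p = 0.945). Casp1 averaged 5.57 ± 2.08 CPM after lemborexant and 6.29 ± 2.15 CPM after vehicle, a log2 difference of -0.18 ± 0.22 (edgeR adjusted p = 0.632). In each treatment 1 library stood high for Casp1, lemborexant 6 at 10.5 CPM and vehicle 3 at 11.4 CPM. A log2 difference of 0 lay within 1 SE of all 9 tested values, and the SE was 0.30 to 0.60 for all but Il18 and Casp1, so changes of that size were not resolved.

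**Figure D2:**
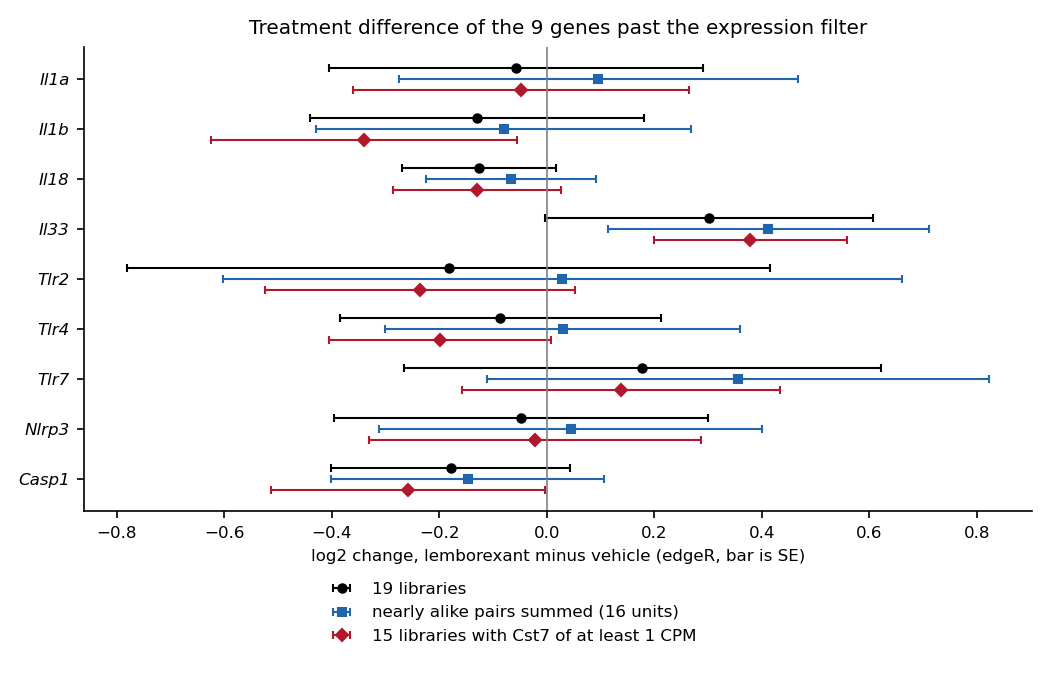
Log2 difference in level, lemborexant minus vehicle, with bars of 1 SE in edgeR's fits of the 19 libraries (black circles), of 16 units with the nearly alike pairs summed (blue squares) and of the 15 libraries with at least 1 CPM of Cst7 (red diamonds). The 9 black circles run from -0.18 to 0.30, and Il33 is the gene with the largest positive estimate in all 3 fits.

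Several of the genes separated between libraries with and without Cst7. None did between treatments. Such a separation by treatment was rare over all 19105 genes, with 10 wholly above after lemborexant and 27 wholly below. In 4 of the 9 genes tested, Tlr2, Tlr7, Il33 and Il1a, each of the 15 libraries with Cst7 was above each of the 4 without it. Over all 19105 genes this held for 6.33%, and the opposite order held for 2.27% of genes and for 0 of the 9. Because the libraries without Cst7 include lemborexant and vehicle libraries alike, the split cuts across treatment. In bulk tissue, fewer cells of a type and less RNA per cell cannot be told apart.

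Tlr2 separated most. It lay at 6.58 to 24.3 CPM with a median of 14.1 in the 15 libraries with Cst7, against 0.650, 0.904, 0.441 and 1.08 CPM in lemborexant 1, lemborexant 10, vehicle 1 and vehicle 4. The ratio of medians was 18.1, and the 4 low values rest on 9 to 25 reads each. The endosomal receptor gene Tlr7 lay at 3.11 to 14.7 CPM with a median of 6.78 with Cst7, against 1.49, 1.16, 1.86 and 0.564 CPM in the same 4 libraries, a ratio of medians of 5.12. Tlr4 had a median of 4.43 CPM with Cst7, in a range of 2.27 to 6.57, against 2.56, 1.74, 1.42 and 1.18 CPM without. The ratio of its medians was 2.81, and its ranges overlapped only where lemborexant 7, at 2.27 CPM, lay under lemborexant 1, at 2.56 CPM. When the 2 libraries of a nearly alike pair were averaged, Tlr4 separated too, in a setting where the share of all genes was not counted.

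Il33 lay at 110 to 350 CPM with a median of 205 in the libraries with Cst7, against 51.1, 46.5, 102 and 78.4 CPM in lemborexant 1, lemborexant 10, vehicle 1 and vehicle 4, a ratio of medians of 3.17. The lowest Il33 value with Cst7 belonged to vehicle 5, which had the most Cst7 of any library, 144 CPM. Its separation from vehicle 1 depended on the scaling: without TMM factors vehicle 5 held 93.5 CPM and vehicle 1 held 103 CPM, and in TPM they held 45.6 and 63.3. Il1a lay at 2.02 to 7.84 CPM with a median of 3.16 with Cst7, against 0.917, 1.45, 1.77 and 1.60 CPM without, a ratio of medians of 2.08. Its margin was narrow, since the lowest value with Cst7, 2.02 CPM in lemborexant 7, was close to the highest without, 1.77 CPM.

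Il1b, Nlrp3 and Tnf had higher medians with Cst7 but overlapped. Il1b lay at 0.802 to 2.78 CPM with a median of 1.38 with Cst7, against 0.803, 1.30, 0.441 and 0.423 CPM without. The 2 vehicle libraries without Cst7 lay below every other library, while the 2 lemborexant ones lay inside the range. Nlrp3 lay at 0.396 to 1.60 CPM with a median of 0.969 with Cst7, against 0.229, 0.325, 0.441 and 0.423 CPM without, and those 4 values rest on 6 to 9 reads each. Tnf had 1 to 9 reads in the libraries with Cst7 and 0 to 3 in those without; the 0 reads of lemborexant 1 and vehicle 4 allow up to 0.115 and 0.141 CPM, counting 3 reads as the limit of a count of 0. At that depth a difference in Tnf was not detectable.

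Il18 and Casp1 hardly differed. Il18 lay at 24.9 to 52.3 CPM with a median of 31.3 with Cst7, against 28.2, 24.1, 24.4 and 34.2 CPM without, a ratio of medians of 1.19. Casp1 lay at 1.99 to 11.4 CPM with a median of 5.57 with Cst7, against 5.20, 5.17, 5.54 and 4.09 CPM without, a ratio of 1.07. The protease and this substrate thus had similar medians on both sides of the split.

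**Figure D3:**
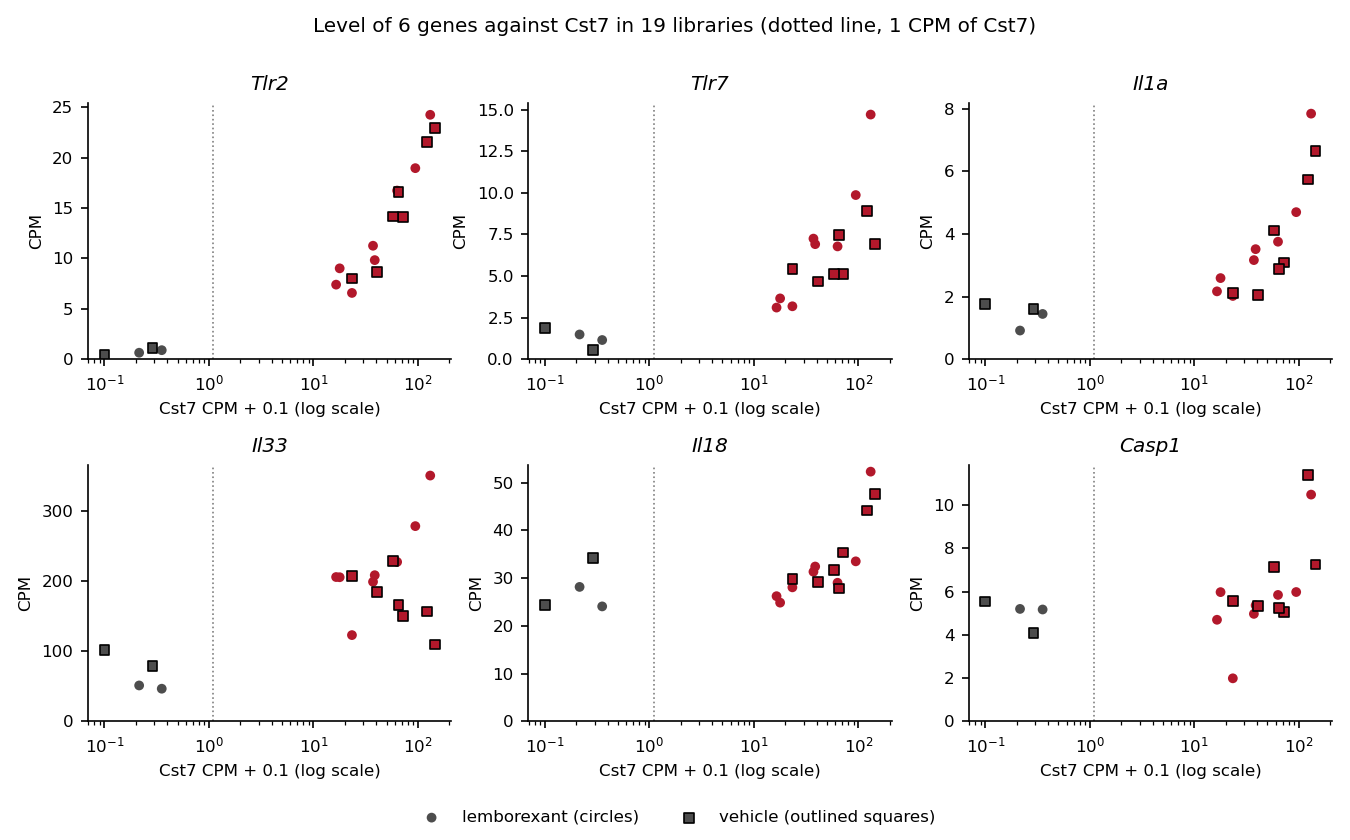
Level of 6 of the genes in CPM (linear axis) against Cst7 in CPM plus 0.1 (log axis), with 1 point per library, circles for lemborexant and outlined squares for vehicle. Grey points are the 4 libraries left of the dotted line at 1 CPM of Cst7. Tlr2 follows Cst7 across the 15 red points, whereas Il33 does not.

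Some sums of marker genes moved with the split and others did not. The summed level of 10 microglial markers was 1134 to 4076 CPM with Cst7, against 446 to 709 CPM without, and that of 10 disease-associated microglial markers, Cst7 among them, was 458 to 2227 CPM, against 134 to 180 CPM. Of the 10 microglial markers, 8 were above in every library with Cst7, and none was at 0. Reactive astrocyte markers summed to 3551 to 10462 CPM with Cst7, against 592 to 725 CPM without, and neuronal markers to 2664 to 7697 CPM, against 8567 to 9859 CPM. The sum of 8 general astrocyte markers, which shares Gfap with the reactive list, was 8089.7 to 16514.5 CPM with Cst7, against 5350.2 to 6062.7 CPM without. T cell markers were low on both sides, at 4.17 to 12.9 CPM with Cst7, against 1.55 to 2.68 CPM without. Neutrophil markers overlapped, at 0.274 to 13.6 CPM with Cst7, against 1.46 to 14.1 CPM without, and their defining genes Ly6g and Mpo were under 1 CPM in every library. Sums of oligodendrocyte, monocyte, border macrophage, meningeal fibroblast, endothelial and choroid plexus markers overlapped as well. Among the overlapping sums named here, that of choroid plexus varied most widely, at 31.5 to 10552 CPM with Cst7, against 110 to 3347 CPM without. The part of these cell types in the members' values was not tested.

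The genes lay on different sides when set against microglial marker RNA. Per 1000 CPM of the 10 microglial markers, Tlr2 was at 4.97 to 7.86 CPM with a median of 6.13 in the libraries with Cst7, against 0.777 to 2.02 CPM in those without. Of the 10 genes, Tlr2 alone lay wholly above on this scale, as 0.612% of the 19105 genes did. Tlr7 overlapped, at 2.01 to 4.07 CPM with Cst7, against 0.796 to 3.30 CPM without. Il18, Casp1 and Il1a were wholly below, as were 62.8% of all genes, since the marker sum they are divided by is itself lower in the libraries without Cst7. Il18 lay at 12.2 to 24.8 CPM per 1000 CPM of microglial markers with Cst7, against 43.0 to 62.4 CPM without. Casp1 lay at 1.76 to 4.60 CPM on this scale with Cst7, against 5.77 to 11.6 CPM without, and Il1a at 1.17 to 2.02 CPM, against 2.03 to 3.24 CPM. Tlr4, Il1b, Nlrp3, Il33 and Tnf overlapped. The scale assumes that the markers are made by the same cells as the gene, which does not hold for Il33. Per 1000 CPM of 6 oligodendrocyte markers, Il33 lay at 18.5 to 25.8 CPM with Cst7, against 10.1 to 13.3 CPM without. Per 1000 CPM of 8 astrocyte markers it overlapped, at 7.06 to 23.0 CPM with Cst7, against 8.65 to 16.8 CPM without. Both comparisons were chosen after the values were seen. The share of all genes that separate on either of these scales was not counted, so the Il33 values have no background there.

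**Figure D4:**
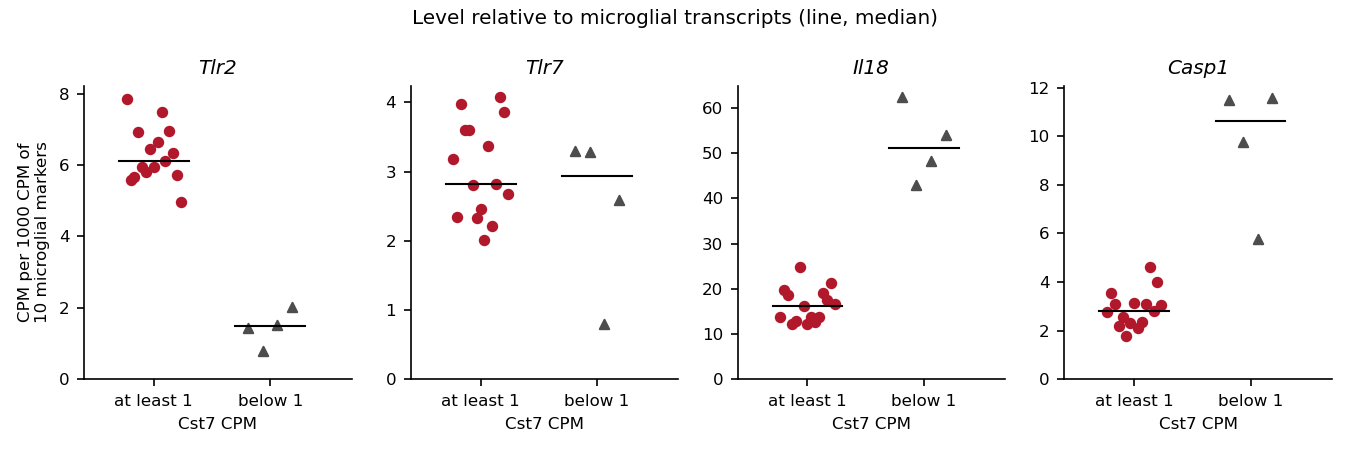
Level of 4 of the genes per 1000 CPM of 10 summed microglial markers, on linear axes, in libraries with at least 1 CPM of Cst7 (left, n = 15, red circles) and under 1 CPM (right, n = 4, grey triangles), with a line at the median. Tlr2 is higher in all libraries on the left, Il18 and Casp1 are lower in all of them, and Tlr7 overlaps.

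Within the libraries with Cst7, the 8 genes with a mean of at least 1 CPM differed in how closely they followed it. As a description over 13 units (nearly alike pairs averaged), the Pearson correlation of log2 CPM with Cst7 was 0.957 for Tlr2, 0.887 for Il1a, 0.825 for Il18, 0.797 for Tlr7, 0.698 for Tlr4, 0.680 for Casp1, 0.513 for Il1b and 0.07 for Il33. The units share library scaling and cell makeup, so many genes correlate: of 15124 protein-coding genes ordered by likeness, Cst7 ranked 24 for Tlr2 and 7131 for Il33. Between these, Cst7 ranked 428 for Il1a, 509 for Tlr7, 577 for Tlr4, 1139 for Il18, 1469 for Casp1 and 2193 for Il1b. Leaving out the 2 units farthest from the median of the gene, the correlation was 0.945 for Tlr2 and 0.13 for Il33.

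The gene most like Tlr2 across these units was Lair1, an inhibitory receptor of immune cells that binds collagen (r = 0.977), followed by Fyn, a Src-family kinase (r = 0.977). The closest to Il1a were Pdlim4 (r = 0.979) and Ninj1, which ruptures the membrane of dying cells (r = 0.975). Il33 was closest to Gatm, an enzyme of creatine synthesis (r = 0.964), and Ermn, a cytoskeletal protein of oligodendrocytes (r = 0.960). Il1b was closest to Oasl1, an interferon-induced gene (r = 0.914), and Polr3c, a subunit of RNA polymerase III (r = 0.903). For Tlr7 they were Retsat and Dhrs3, both enzymes of retinol metabolism (r = 0.963 and 0.954). Tlr4 was closest to Ptbp3 and Snap23 (r = 0.926 and 0.910), Il18 to Snapc5 and Selenok (r = 0.977 and 0.976), and Casp1 to Grap and Chmp1b (r = 0.960 and 0.952). With the 2 units farthest from the median of the gene left out, these correlations ran from 0.796 (Tlr4 with Snap23) to 0.967 (Il1a with Pdlim4). The next lowest was 0.867 (Casp1 with Chmp1b). Of these neighbours, Lair1, Pdlim4, Oasl1 and Dhrs3 were above in every library with Cst7, and the others overlapped. Lair1 lay at 23.9 to 73.9 CPM with Cst7, against 10.3 to 11.9 CPM without. Oasl1 lay at 1.61 to 8.41 CPM, against 0.049 to 0.188 CPM, although Il1b itself overlapped.

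The wider pathway was read from 107 genes in 8 lists, all of them matched, of which 91 were tested for treatment. None of the 91 was called by edgeR at an adjusted p of 0.05, against 2.61% of all genes. The median log2 difference was -0.02 over the 91, against 0.03 over all genes tested. DESeq2 gave an adjusted p to 98 genes of the lists and called 3 (Il1rapl1, Il1rapl2 and Irak3), against 7.84% of all 23100 genes with an adjusted p there. Voom called 4 of the 91 (these and Traf3), against 11.8% of all genes. Both fits kept the nearly alike pairs apart, as did the edgeR fit of the single pathway genes below. With the pairs summed, edgeR called 0 of 91 pathway genes and 0 genes of the whole table. DESeq2 and voom were not run with the pairs summed.

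By the smallest unadjusted p in each list, the genes nearest to a call were these. Irak3, a kinase-like protein that restrains Toll and interleukin-1 receptor signals, averaged 1.30 ± 0.441 CPM after lemborexant and 0.750 ± 0.293 CPM after vehicle, a log2 difference of 0.78 ± 0.26 (edgeR adjusted p = 0.0871). Il1rapl1 and Il1rapl2, neuronal members of the receptor family that organise synapses, had log2 differences of 0.52 ± 0.15 (adjusted p = 0.0672) and 0.65 ± 0.22 (adjusted p = 0.0913) in edgeR's fit. Il1rapl1 averaged 11.7 ± 2.39 CPM after lemborexant and 8.18 ± 2.14 CPM after vehicle. Nfkb2, a subunit of nuclear factor kappa-B, averaged 7.02 ± 1.23 CPM after lemborexant and 9.10 ± 1.96 CPM after vehicle, a log2 difference of -0.38 ± 0.13 (edgeR adjusted p = 0.0956), and Nfkbib, an inhibitor of the factor, had -0.28 ± 0.12 (adjusted p = 0.145). The other genes named by the same rule had adjusted p from 0.185 to 0.906 in edgeR's fit. They were Panx1 (log2 -0.35 ± 0.16), Gsdme (0.15 ± 0.10), Tradd (-0.29 ± 0.15), Ltb (-0.34 ± 0.36), Cnpy3 (-0.14 ± 0.08), Lbp (0.69 ± 0.52), Sarm1 (-0.22 ± 0.12), Tlr12 (-0.40 ± 0.29), Tlr13 (0.09 ± 0.40) and Il1rn (-0.65 ± 0.63).

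Across the Cst7 split, 35 of the 91 pathway genes were above in every library with Cst7, 31 of them outside the 10 genes described here, and 0 were below in every one. Over all genes tested the shares were 6.33% above and 2.27% below. Of the Toll-like receptor genes outside the 10, Tlr1, Tlr3, Tlr6 and Tlr13 were of this kind (4 of 6 tested). Tlr1 and Tlr6 encode the partners with which Tlr2 binds lipoproteins. Tlr1 lay at 2.13 to 8.21 CPM with Cst7, against 0.343 to 0.611 CPM without, and Tlr6 at 1.19 to 3.52 CPM, against 0.268 to 1.03 CPM. Among the helpers, 4 of 8 separated. Cd14, which hands lipopolysaccharide and lipoproteins to Tlr4 and Tlr2, lay at 16.5 to 69.8 CPM with Cst7, against 4.02 to 5.81 CPM without. Unc93b1, which carries Tlr7 and other endosomal receptors to their compartment, lay at 43.5 to 119 CPM with Cst7, against 10.4 to 19.3 CPM without.

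Of 18 inflammasome genes tested beside Nlrp3 and Casp1, 9 separated. Pycard, the adaptor that joins the sensor to caspase-1, lay at 16.2 to 62.7 CPM with Cst7, against 6.27 to 10.4 CPM without. Gsdmd, whose product forms the pore that caspase-1 opens, lay at 4.75 to 12.1 CPM with Cst7, against 2.02 to 3.73 CPM without. Casp4, Casp8, Txnip, Nlrp1b, Naip2, Naip5 and Naip6 were the others. The Naip genes are close copies of each other, so their reads may be divided uncertainly. Casp1 overlapped where its adaptor and its pore substrate did not.

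In the other lists the shares ranged widely. Of the adaptors and kinases 5 of 19 did (Ticam2, Irak2, Irak4, Irf3 and Irf7), with Irf7, an interferon-response factor downstream of Tlr7, at 12.2 to 127 CPM with Cst7, against 2.82 to 4.56 CPM without. Of the nuclear factor kappa-B genes 2 of 15 did (Nfkb1 and Rela), and of the interleukin-1 family receptors and decoys 2 of 8 (Il1rl2 and Il18bp). Of the 7 tested genes of the tumour necrosis factor list 4 did, among them both receptors: Tnfrsf1a lay at 28.7 to 70.1 CPM with Cst7, against 12.8 to 15.5 CPM without, and Tnfrsf1b at 5.61 to 15.3 CPM, against 2.45 to 3.25 CPM. Il1rn, the natural antagonist of interleukin-1, also separated, but only just. Its lowest value with Cst7, 0.39799 CPM, was nearly equal to its highest without, 0.397749 CPM. Of the marker sums given above, those of microglia, disease-associated microglia, astrocytes, reactive astrocytes and T cells also lay above in every library with Cst7. The neuronal sum lay below, and the neutrophil sum overlapped.

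**Figure D5:**
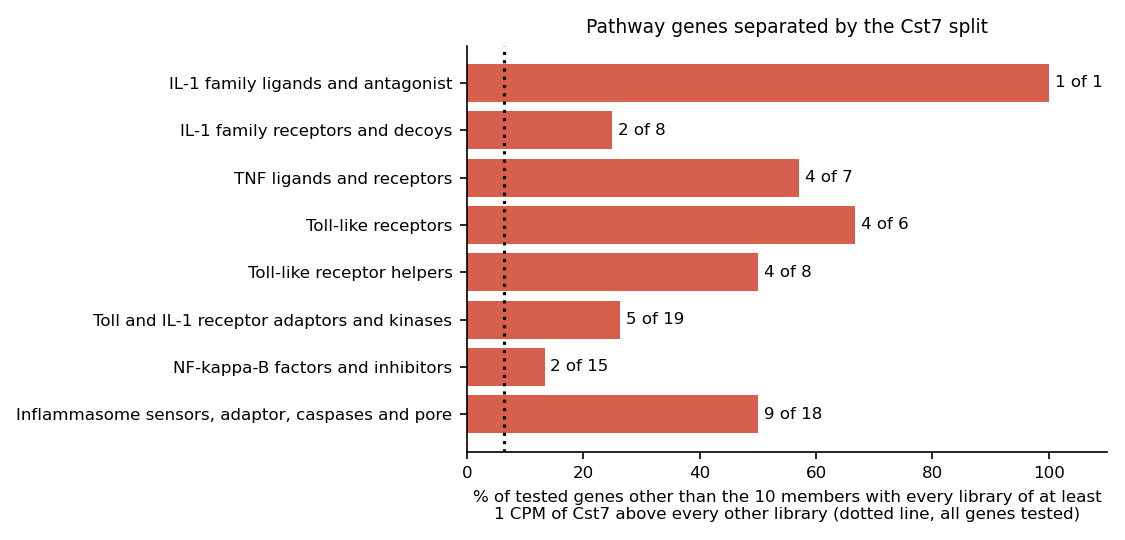
For each of the 8 pathway lists, the percentage of its tested genes outside the 10 genes described here that were above in every library with at least 1 CPM of Cst7, with the counts beside the bars and a dotted line at the 6.33% of all genes tested. The bars run from 2 of 15 genes in the nuclear factor kappa-B list to the single tested gene of the ligand list, and all lie above the line. That single gene is Il1rn, whose lowest value with Cst7 and highest without were nearly equal, at 0.39799 and 0.397749 CPM.

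The genes lie apart in the genome except for Il1a and Il1b, neighbours on mouse chromosome 2. On GRCm38, Il1a (ENSMUSG00000027399) spans chr2:129299610-129309972 and Il1b (ENSMUSG00000027398) chr2:129364570-129371139, both on the minus strand. Il33 spans chr19:29925114-29960718 and Tlr2 chr3:83836272-83841767. Il18, at chr9:50554827-50581840, overlaps Bco2 and Tex12 on the opposite strand, Il1a overlaps Gm14023 and Il1b overlaps the antisense gene Il1bos. The sources used here do not say whether the authors' counting used strand, so reads of these overlapping genes cannot be told apart.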

How the data were processed

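Per the labels' protocols, RNA of 19 cortex samples was isolated with TRIzol, chloroform and RNeasy columns and entered a Takara Clontech SMARTer Ultra Low preparation. Per the submitters' processing notes, bcl2fastq and DRAGEN 3.9.3-8 were used with the GRCm38 build while the sources used here do not state annotation release, strand setting or filters. Groups follow the labels, 10 and 9 libraries, although the design text says triplicate. Per the file headers, the deposited tables give each gene an estimated count, which the authors' program may divide between genes, and a TPM value. Estimated counts were rounded to whole numbers for tests. TPM, relative to each library's total and to gene length, served for levels between genes and for 2 alternatives.

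Symbols and positions came from GENCODE's GRCm38 annotation, and 4 interleukin-36 genes were matched through RefSeq synonyms. Treatment was tested two-sided by quasi-likelihood in edgeR 4.0.16 (R 4.3.3), with TMM factors, edgeR's expression filter and Benjamini-Hochberg adjustment over 19105 genes at 0.05. The SE is the size of the log2 difference divided by the square root of F. CPM used TMM factors. Ratios of medians are plain ratios of CPM. Alternatives used limma 3.58.1, DESeq2 1.42.0 and left-out libraries. Of the nearly alike pairs, each has 1 library numbered 859 to 907 and 1 numbered 1064 to 1374. Depth gives a gene at 1 CPM at least 20 reads per library, and the limit for a count of 0 covers counting error only.

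The 10 genes and the lists were chosen with earlier results of these data known. Genes named outside the 10 are the 2 with the smallest unadjusted p in each list, the 2 protein-coding genes with the highest Pearson correlation to each of the 8 genes with a mean of at least 1 CPM, and those counted in a list.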

Additional observations from a re-analysis of the deposited data

Results flagged for a closer look

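Of 50 combinations of a gene and a group searched, 3 had a library whose gap to its nearest neighbour, divided by the range of its group, was above Dixon's 95% critical value, a level at which about 1 group in 20 is marked by chance. Il18 in lemborexant 6 was 52.3 CPM, against 24.1 to 33.5 CPM in the other lemborexant libraries. Casp1 in the same library was 10.5 CPM, against 1.99 to 5.98 CPM in the others. Casp1 in vehicle 3 was 11.4 CPM, against 4.09 to 7.25 CPM in the other vehicle libraries. Both libraries had high Cst7, 131 CPM in lemborexant 6 and 122 CPM in vehicle 3.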

How the results depend on the processing

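None of the 9 genes past the filter was called in any of 33 settings of the treatment fit, nor was Tnf in the 4 that fitted it, and the lowest adjusted p of a member was 0.182. Of 300 values of single genes under other settings, 257 kept the direction of their difference and 43 did not. The 257 include the values at the looser threshold of 0.1, which repeat the reported fit and could not differ. All values of Casp1, and of Tnf where it was fitted, kept their direction. The count of called genes over the whole table, 498, was 2137 at an adjusted p of 0.1, 254 without the filter, 1810 with DESeq2, 2251 with voom, 146 with log2(TPM + 1), 41 with log2(TPM + 0.1), 294 with the library number range as a covariate, 8 among libraries 1064 to 1602, 0 among libraries 859 to 933 and 307 without lemborexant 7 and vehicle 7. It was 0 with the nearly alike pairs summed, and 0 again with the libraries without Cst7 also left out. Leaving out 1 library gave 31 to 1274: 31 without lemborexant 9, 35 without lemborexant 4, 39 without vehicle 4, 76 without vehicle 5 and 1274 without vehicle 8. The causes were not tested, except that fewer libraries enter some fits. Called pathway genes were 0, but 4 at an adjusted p of 0.1 (Il1rapl1, Il1rapl2, Irak3 and Nfkb2), 3 with DESeq2, 4 with voom and 0 to 2 with 1 library left out.

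The genes separated by Cst7 were 4, but 3 in CPM without TMM factors and in TPM (Il33 lost), 5 with pairs averaged (Tlr4 gained) and 4 to 5 with 1 library left out, which was added after seeing the data. The share of all genes that separated, 6.33%, was counted in the reported setting only. The other counts therefore have no background to be read against, and fewer libraries or units make separation easier.

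Log2 differences that changed sign were as follows. With log2(TPM + 1), which moved the median of all genes from 0.03 to 0.18, Il1a was 0.082, Il1b 0.083, Il18 0.078, Tlr2 0.030 and Tlr4 0.088; with log2(TPM + 0.1), Il1a was 0.10, Il1b 0.16, Il18 0.079, Tlr2 0.10, Tlr4 0.19 and Nlrp3 0.019. With voom, Il1b was 0.11 and Tlr7 -0.10. With pairs summed, Il1a was 0.10, Tlr2 0.029, Tlr4 0.030 and Nlrp3 0.045, and with the libraries without Cst7 also left out, Il1a was 0.056 and Nlrp3 0.019. Among libraries 859 to 933, Il1a was 0.22, Il1b 0.21, Il33 -0.37 and Tlr7 -0.32; among libraries 1064 to 1602, Tlr4 was 0.088 and Nlrp3 0.29. With the range as a covariate Il1a was 0.0086, and without lemborexant 7 and vehicle 7, Il1a was 0.044, Il1b 0.059 and Nlrp3 0.036. Leaving out 1 library, the ranges were -0.31 to 0.13 for Il1a, -0.25 to 0.081 for Il1b, -0.24 to -0.05 for Il18, 0.16 to 0.42 for Il33, -0.41 to -0.01 for Tlr2, -0.22 to 0.020 for Tlr4, -0.088 to 0.31 for Tlr7, -0.16 to 0.12 for Nlrp3 and -0.33 to -0.03 for Casp1. No paired analysis was possible because the labels carry no replicate numbers.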

Other observations

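In the plot of levels against Cst7, 5 libraries with much Cst7 are given here, picked after their Il33 values were seen, and no difference was tested. In lemborexant 5 and 6, with 94.2 and 131 CPM of Cst7, Il33 was 278 and 350 CPM, the highest values of all libraries. In vehicle 2, 3 and 5, with 71.7, 122 and 144 CPM of Cst7, Il33 was 150, 156 and 110 CPM, the lowest of the vehicle libraries with Cst7. The oligodendrocyte marker sum stood at 10766 and 14525 CPM in lemborexant 5 and 6, against 7322, 8072 and 5359 CPM in vehicle 2, 3 and 5, and its part in the Il33 values was not tested.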
